A study of Mus musculus with 8 samples.

Results

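The mitosis genes described here are 34 genes of mitotic entry, chromosome segregation and cytokinesis, chosen by symbol from a fixed list. That list and the other gene lists used below were chosen with earlier results of these data known. All 34 were found among the 52030 gene symbols of the count table, each on 1 row, and all 34 passed the low-count filter that left 17360 genes. RNA had been sequenced from primary fibroblasts of wild-type mouse lung, grown in serum-containing medium and left untreated or exposed for 48 hours to recombinant TWEAK, a TNF-family cytokine. The 4 groups were untreated, 10, 30 and 100 ng/ml, with 2 libraries each and 8 in all. Whether replicate libraries are separate cultures, or separate mice, is not stated in the labels. The p-values therefore reflect only how these libraries scatter, and that scatter may be technical.

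Most of these genes are silent in resting cells and are transcribed late in the cell cycle, as a cell prepares to divide. Cyclin-dependent kinase 1 with its A- and B-type cyclins starts mitosis, kinetochores tie chromosomes to spindle microtubules, a checkpoint waits until every chromosome is attached, and the anaphase-promoting complex then marks cyclin B for destruction. In cultured fibroblasts the summed level of such transcripts is a common readout of proliferation. In RNA from whole cultures, more dividing cells and more of these transcripts per cell cannot be told apart.

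Total counts ran from 37345575 to 50896445 per library, with the untreated libraries the deepest. Replicates were further apart than counting noise allows (chi-square per degree of freedom 22.7 to 27.6), so none was treated as a duplicate. Levels are given as TMM-scaled CPM (counts relative to library size), and 3 counts corresponded to between 0.0599 and 0.0801 CPM. Doses are given as labelled, and whether the label of any library is right was not tested. Between 10 and 30 ng/ml 0% of the 17360 genes passed the test of edgeR (1208 genes, 6.96%, had an unadjusted p under 0.05). By DESeq2 129 did. Against untreated cells 194 genes passed at 100 ng/ml, 4041 at 30 ng/ml and 5075 at 10 ng/ml, so by this count the libraries labelled 100 ng/ml stood closest to untreated. A lower response at the highest labelled dose and a mistaken dose label cannot be told apart here, which bears on each value given for 100 ng/ml.

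At 10 ng/ml the mitosis genes were higher as a block. Of the 34, 32 rose and none fell by the quasi-likelihood F test of edgeR (Benjamini-Hochberg adjusted p under 0.05), while 15% of all genes tested rose and 14.2% fell. Their median change was a 2.74-fold rise (1.45 on the log2 scale), beside a median log2 change of 0.01 over all genes tested. Fitted folds ran from 1.32 for Racgap1 to 4.17 for Nuf2, and 28 of the 34 were at least 2-fold. The share of all genes tested that were at least 2-fold was not computed. Both libraries at 10 ng/ml lay above both untreated libraries for each of the 34, which held for 33.1% of all genes. At 30 ng/ml 31 rose and none fell, beside 12.6% of all genes that rose and 10.7% that fell, with a median log2 change of 1.21. Both libraries at 30 ng/ml lay above both untreated ones for all 34, against 32.4% of genes tested. All 31 were also among the 32 that rose at 10 ng/ml, but both comparisons share the untreated libraries. The share of all genes that rose at both doses was not computed. At 100 ng/ml only Ube2c passed, beside 0.812% of all genes that rose and 0.305% that fell. The 34 genes together held 214 and 230 CPM in the untreated libraries, 538 and 537 at 10 ng/ml, 520 and 438 at 30 ng/ml, and 273 and 319 at 100 ng/ml. On this summed level no untreated library reached any treated one, and the libraries labelled 100 ng/ml lay between the untreated ones and those of the lower doses.

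**Figure D1:**
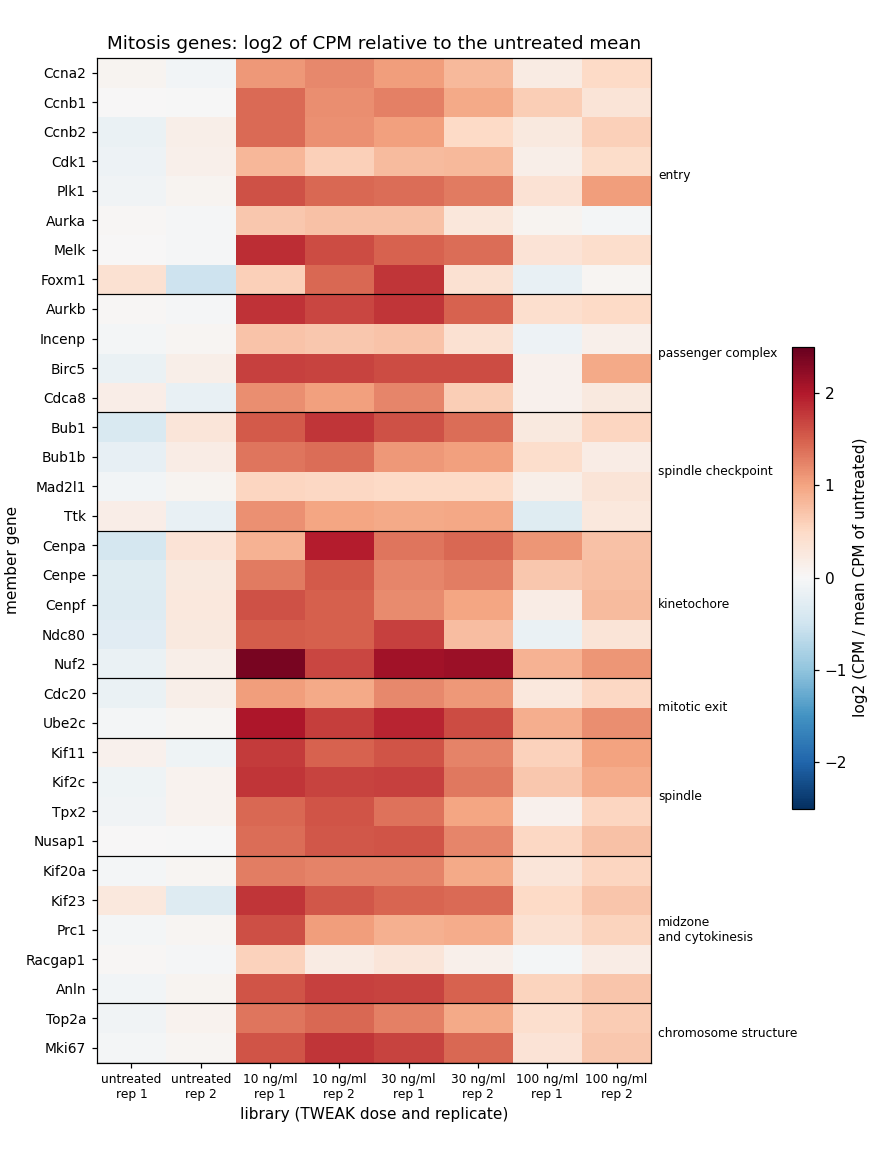
Heat map of the 34 mitosis genes (rows, grouped by role) in each of the 8 libraries (columns), coloured by the log2 ratio of the library's CPM to the mean CPM of the untreated libraries. The 4 libraries at 10 and 30 ng/ml are above the untreated libraries for all 34 genes, and the libraries labelled 100 ng/ml are paler.

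Because the members moved together, their promoters are shown next. Promoter windows from RefSeq on GRCm38.p6, which is the mm10 assembly, run from 250 bases before to 50 after each gene's start, 300 bases in all. A window was found for 28 of the 34 genes, with 2 overlapping windows for Prc1. Ccna2, Foxm1, Aurkb, Incenp, Tpx2 and Kif20a are named only. The motifs searched on both strands were the cell cycle homology region, CHR (TTTGAA or TTTAAA), the site in late cell cycle promoters known to be bound by MuvB complexes, and the CCAAT box (CCAAT), known to be bound by NF-Y. The third was an E2F site (TTTGGCGC, TTTCGCGC or TTTCCCGC). The 6 stretches below are the 120 bases before the start of the members with the highest mean CPM that hold a CHR match before the start. Starts are those of RefSeq, which for Cdk1, Prc1 and Cdc20 lie a little inside the GENCODE gene. The stretches are written 5′ to 3′ on the gene's strand, with CHR and CCAAT matches in capitals.
Top2a: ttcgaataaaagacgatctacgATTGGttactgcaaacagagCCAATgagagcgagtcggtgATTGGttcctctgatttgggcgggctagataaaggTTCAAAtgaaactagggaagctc
Mki67: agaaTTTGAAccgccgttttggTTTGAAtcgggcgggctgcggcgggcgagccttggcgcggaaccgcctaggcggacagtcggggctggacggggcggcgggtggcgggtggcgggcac
Cdk1: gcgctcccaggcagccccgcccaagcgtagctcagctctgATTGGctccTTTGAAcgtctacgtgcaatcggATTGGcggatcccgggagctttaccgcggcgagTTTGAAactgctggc
Prc1: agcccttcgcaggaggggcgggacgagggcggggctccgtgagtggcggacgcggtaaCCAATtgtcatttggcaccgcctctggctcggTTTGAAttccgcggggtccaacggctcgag
Kif11: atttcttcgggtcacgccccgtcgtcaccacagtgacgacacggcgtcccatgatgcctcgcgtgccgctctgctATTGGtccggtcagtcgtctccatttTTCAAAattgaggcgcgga
Cdc20: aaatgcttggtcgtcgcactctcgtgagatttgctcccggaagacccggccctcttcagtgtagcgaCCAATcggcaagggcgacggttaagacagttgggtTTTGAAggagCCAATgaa

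These stretches lie at chr11:99024190-99024309 (Top2a, minus strand), chr7:135716380-135716499 (Mki67, minus), chr10:69352913-69353032 (Cdk1, minus), chr7:80294356-80294475 (Prc1, plus), chr19:37376262-37376381 (Kif11, plus) and chr4:118437344-118437463 (Cdc20, minus). In Top2a the CHR match starts 23 bases before the gene's start, in Kif11 19 and in Cdc20 18. A CHR match stood in the windows of 23 of the 28 members (82.1%), against 22.8% of the 11449 tested genes with a window. Melk, Bub1, Mad2l1, Nuf2 and Nusap1 had no such letters in their windows. A CCAAT box stood in 20 (71.4%) against 42.7% of tested genes, and both motifs in 19 (67.9%) against 9.32%. An E2F site of the letters searched stood in 1 member (3.57%), against 3.85% of tested genes. Only 1 pair of matches to different motifs overlapped in the member windows. Among 24 genes of DNA replication and the G1/S transition with a window, 7 held a CHR match (29.2%), 16 a CCAAT box (66.7%) and 9 an E2F site (37.5%). Among 41 further mitosis genes with a window, listed apart from the 34, 27 held a CHR match (65.9%) and 31 a CCAAT box (75.6%). A match of letters does not show a site in use.

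Mitotic entry is represented by 8 genes, and 7 of them rose at 10 ng/ml. Cdk1 (chromosome 10 from 69335146 to 69352938), the kinase that starts mitosis, stood at 9.69 and 11.6 CPM in untreated cells, 19 and 16 at 10 ng/ml, 18.5 and 18.7 at 30 ng/ml and 11.8 and 14.7 at 100 ng/ml. Its rise was 0.72 ± 0.16 on the log2 scale at 10 ng/ml (SE, edgeR adjusted p = 0.0103). The 4 libraries of 10 and 30 ng/ml were above the other 4. Its partners rose more, Ccnb1 (cyclin B1) by 1.29 ± 0.18, Ccnb2 (cyclin B2) by 1.28 ± 0.24 and Ccna2 (cyclin A2) by 1.14 ± 0.15. The mitotic kinases Plk1 and Aurka rose by 1.51 ± 0.23 and 0.71 ± 0.18, and Melk, a kinase abundant in dividing cells, by 1.74 ± 0.16. The call on Cdk1 was lost without TWEAK10 replicate 1 (adjusted p = 0.0632) or untreated replicate 1 (0.078) by edgeR. That on Aurka was lost without either untreated or either 10 ng/ml library (0.0607 to 0.0883). Exons of Ccna2 share 12.5% of their bases with Exosc9 on the opposite strand, so that its counts are uncertain.

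Foxm1, the transcription factor of late cell cycle genes, was the entry gene that did not pass. Its levels were 6.97 and 3.77 CPM in untreated cells, 8.15 and 14.6 at 10 ng/ml, 18.5 and 7.04 at 30 ng/ml and 4.75 and 5.53 at 100 ng/ml. Both libraries of 10 ng/ml and both of 30 ng/ml lay above the untreated ones, but libraries of a group differed by up to 2.62-fold, at 30 ng/ml. The fitted change was 1.08 ± 0.49 at 10 ng/ml (edgeR adjusted p = 0.141) and 1.25 ± 0.49 at 30 ng/ml (0.112). DESeq2 called it at both doses (adjusted p = 0.0238 and 0.00917). Without TWEAK10 replicate 2 the change at 10 ng/ml was 0.60, and without TWEAK30 replicate 1 that at 30 ng/ml was 0.39. Without TWEAK30 replicate 2 it was 1.78, and edgeR then called it (adjusted p = 0.0248). Without untreated replicate 1 the changes were 1.59 at 10 ng/ml and 1.76 at 30 ng/ml, and without untreated replicate 2 they were 0.71 and 0.87. Foxm1 lies on chromosome 6 from 128362967 to 128376146.

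The 4 subunits of the chromosomal passenger complex, which corrects faulty attachments and guides cytokinesis, all rose at 10 and 30 ng/ml. Incenp, the scaffold, had 14.5 and 15.6 CPM in untreated cells, 24.8 and 24.1 at 10 ng/ml, 24.6 and 19.6 at 30 ng/ml and 13.8 and 16.4 at 100 ng/ml. Its libraries of 100 ng/ml enclosed the untreated ones. Its rise at 10 ng/ml, 0.70 ± 0.14 (edgeR adjusted p = 0.00705), was the smallest of the complex, and without untreated replicate 1 its call was lost (0.0537). The kinase Aurkb rose by 1.74 ± 0.18, Birc5 (survivin) by 1.70 ± 0.27 and Cdca8 (borealin) by 1.10 ± 0.24 on the log2 scale. Cdca8 no longer passed without TWEAK10 replicate 1 (edgeR adjusted p = 0.0532) or untreated replicate 2 (0.066). The subunits of this complex thus rose by unequal fitted amounts, from 0.70 to 1.74, and no test of the difference between genes was made.

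All 4 spindle checkpoint genes rose at 10 and 30 ng/ml. Mad2l1, which holds back the anaphase-promoting complex, stood at 12.3 and 13.5 CPM in untreated cells, 18.7 and 18.4 at 10 ng/ml, 18.2 and 18.3 at 30 ng/ml and 14.3 and 16.1 at 100 ng/ml. Its replicates were close, and its rise of 0.52 ± 0.11 (edgeR adjusted p = 0.009) was the smallest among members that passed at 10 ng/ml. The checkpoint kinase Bub1 rose by 1.67 ± 0.26, the pseudokinase Bub1b by 1.37 ± 0.16 and the kinase Ttk by 1.06 ± 0.24. The call on Mad2l1 was lost without untreated replicate 1 (edgeR adjusted p = 0.075), and that on Ttk without TWEAK10 replicate 1 (0.0658) or untreated replicate 2 (0.0801).

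Kinetochore and centromere genes held the largest change. Nuf2, a subunit of the complex that grips microtubules (chromosome 1 from 169497934 to 169531464), had 1.68 and 2.07 CPM in untreated cells, 9.72 and 5.94 at 10 ng/ml, 7.97 and 8.26 at 30 ng/ml and 3.42 and 4 at 100 ng/ml. The groups of 10 and 30 ng/ml overlapped, and both were above the 100 ng/ml libraries, which were above the untreated ones. Its change was 2.06 ± 0.26 at 10 ng/ml (edgeR adjusted p = 0.000738) and 2.11 ± 0.26 at 30 ng/ml (0.000836), the largest of the 34 at both doses. Ndc80, of the same complex, rose by 1.51 ± 0.34 at 10 ng/ml, a call lost without untreated replicate 1 (edgeR adjusted p = 0.0832).

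Cenpe, a kinetochore motor, had 4.09 and 6 CPM in untreated cells, 12.5 and 14.6 at 10 ng/ml, 11.8 and 12.2 at 30 ng/ml and 8.02 and 8.53 at 100 ng/ml. The 4 untreated and 100 ng/ml libraries were below the other 4, and the untreated ones lowest. It rose by 1.42 ± 0.19 at 10 ng/ml (edgeR adjusted p = 0.00104). Cenpf, a large kinetochore protein, rose by 1.54 ± 0.26. Cenpa, the histone variant that marks centromeres, rose by 1.52 ± 0.39, but its libraries of 10 ng/ml, at 3.74 and 8.04 CPM, differed 2.15-fold. Without TWEAK10 replicate 2 its change was 0.86 (edgeR adjusted p = 0.129), and without untreated replicate 1 it was 1.19 (0.124).

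Both genes of mitotic exit rose. Cdc20, the activator of the anaphase-promoting complex, stood at 5.17 and 6.5 CPM in untreated cells, 12 and 11.3 at 10 ng/ml, 13.5 and 12.4 at 30 ng/ml and 6.99 and 8.4 at 100 ng/ml. It was the only member whose 2 libraries at 30 ng/ml both lay above those at 10 ng/ml, a difference that did not pass the test (edgeR adjusted p = 0.903). Ube2c, the complex's ubiquitin-conjugating enzyme (chromosome 2 from 164769898 to 164778822), had 2.8 and 2.97 CPM in untreated cells, 11.8 and 9.49 at 10 ng/ml, 10.7 and 8.97 at 30 ng/ml and 5.38 and 6.45 at 100 ng/ml. Its rise at 10 ng/ml, 1.88 ± 0.18 (edgeR adjusted p = 0.000192), was second to that of Nuf2. Exons of Ube2c share 22.8% of their bases with Tnnc2 on the opposite strand, a gene with 5 counts in all 8 libraries. Those of Cdc20 share 2.84% with Elovl1, which had 33100 counts against 3267 for Cdc20.

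The 4 spindle genes all rose at 10 and 30 ng/ml. Tpx2, a spindle assembly factor that activates Aurka, stood at 8.75 and 9.85 CPM in untreated cells, 25 and 27.5 at 10 ng/ml, 23.8 and 18.3 at 30 ng/ml and 10.1 and 13.5 at 100 ng/ml. Its rise at 10 ng/ml was 2.83-fold (95% interval 2.11 to 3.79, edgeR adjusted p = 0.000586), and no library of 10 or 30 ng/ml came near the untreated ones. Kif11, the motor that pushes spindle poles apart, rose by 1.62 ± 0.20, Kif2c, a microtubule depolymeriser, by 1.74 ± 0.21 and Nusap1 by 1.48 ± 0.17 on the log2 scale. These 4 genes fell within a narrow range, 1.48 to 1.74.

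Of 5 genes of the spindle midzone and cytokinesis 4 rose. Anln (anillin), which organises the contractile ring, had 10.9 and 12.1 CPM in untreated cells, 34.3 and 37.5 at 10 ng/ml, 37.2 and 32.1 at 30 ng/ml and 16.9 and 18.6 at 100 ng/ml. Its rise of 1.64 ± 0.12 at 10 ng/ml had the smallest p of all 34 members (edgeR adjusted p = 3.86e-05). Kif23 rose by 1.68 ± 0.22, Prc1, which bundles midzone microtubules, by 1.36 ± 0.19 and the motor Kif20a by 1.27 ± 0.14. Exons of Kif20a share 29.3% of their bases with Cdc23 on the opposite strand, which had 19741 counts against 5302, and those of Prc1 share 11.1% with Rccd1, so both counts are uncertain.

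Racgap1, the partner of Kif23 in the centralspindlin complex (chromosome 15 from 99620496 to 99651656), had the smallest fitted change of the 34 at 10 and 30 ng/ml. It stood at 15.7 and 15 CPM in untreated cells, 22.8 and 17.8 at 10 ng/ml, 18.9 and 16.6 at 30 ng/ml and 14.9 and 17.3 at 100 ng/ml. The 4 libraries of 10 and 30 ng/ml were above the untreated ones, and those of 100 ng/ml lay on both sides of them. The change at 10 ng/ml was 0.40 ± 0.15 (edgeR adjusted p = 0.0797), and without TWEAK10 replicate 2 it was 0.57 and called (0.036).

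Top2a, the topoisomerase that untangles sister chromatids (chromosome 11 from 98992943 to 99024189), had the highest counts of the 34. It stood at 26.3 and 29.8 CPM in untreated cells, 71.3 and 76 at 10 ng/ml, 66.7 and 54.1 at 30 ng/ml and 37.3 and 43.3 at 100 ng/ml. The 4 groups did not overlap and ran in the order untreated, 100, 30 and 10 ng/ml, although the difference between 10 and 30 ng/ml did not pass (edgeR adjusted p = 0.723). Mki67, the proliferation marker Ki-67 that coats mitotic chromosomes, rose by 1.68 ± 0.14 at 10 ng/ml (edgeR adjusted p = 9.37e-05), from 14.5 and 15.3 CPM to 44.6 and 51.3.

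**Figure D2:**
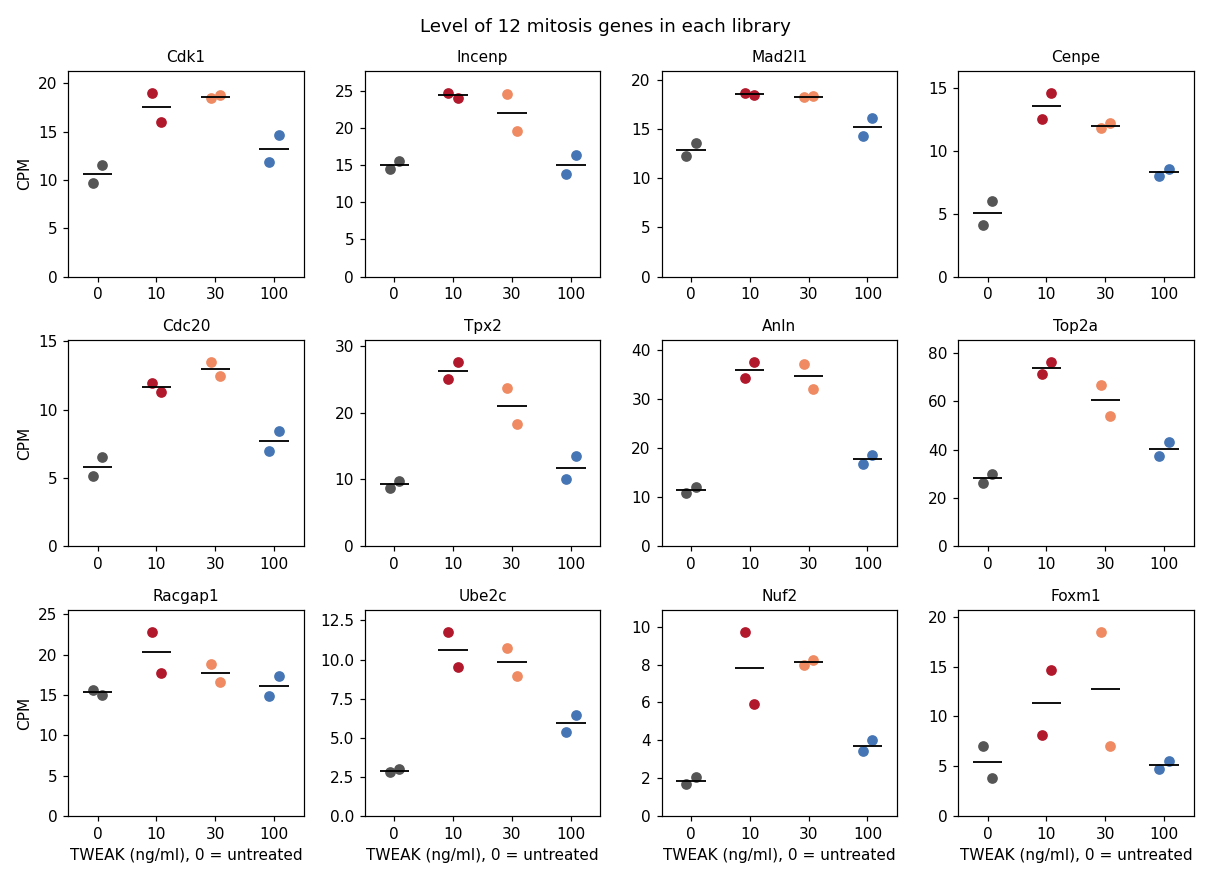
CPM of 12 mitosis genes in each library (points, 2 per group) against TWEAK dose, with horizontal lines at group means: the most abundant gene of each of 8 roles, those that changed most and least at 10 ng/ml, and those not called. Nuf2 rises from 1.68 and 2.07 CPM in untreated cells to 9.72 and 5.94 at 10 ng/ml, and the Foxm1 replicates lie far apart.

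Levels of different genes were compared per kilobase of annotated exon. In untreated cells they ran from 0.203 CPM per kb for Cenpf to 3.48 for Incenp, with Cdc20 at 3.12 and Top2a at 3.11. At 10 ng/ml Top2a was highest (8.17 CPM per kb), followed by Cdc20 (6.23), Ccnb2 (5.84), Incenp (5.64) and Tpx2 (5.62). The exon lengths join all annotated transcripts of a gene, and a gene whose cells use shorter ones is understated.

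At 30 ng/ml the 3 members that did not pass were Aurka (0.52 ± 0.17, edgeR adjusted p = 0.0702), Foxm1 and Racgap1 (0.21 ± 0.15, 0.367). The call on Ccnb2, 0.78 ± 0.24 (0.0492), was lost without any 1 of 7 libraries (0.0574 to 0.273). Leaving out 1 library also ended calls on Cdk1, Incenp, Cdca8, Mad2l1, Ttk, Cenpa, Cenpf, Ndc80 and Prc1. Without untreated replicate 1 there were 9 lost calls (edgeR adjusted p 0.0532 to 0.229), without TWEAK30 replicate 1 there were 8 (0.059 to 0.273) and without untreated replicate 2 there were 5 (0.0512 to 0.135). Without TWEAK30 replicate 2 there were 3 (0.0555 to 0.111). Without TWEAK100 replicate 1 or 2, Ccnb2 and Cenpa were lost (0.0524 to 0.0592), and without TWEAK10 replicate 1 or 2, Ccnb2 (0.0672 and 0.0643). The other 21 members kept the call in all 8 such fits. Within this group 27 of the 34 genes were higher in replicate 1, and at 10 ng/ml 22 were. Shares of all genes for these 2 counts were not computed.

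Between 10 and 30 ng/ml no member passed, and DESeq2 called none either. The fitted change was larger at 10 ng/ml for 30 of the 34, against 8505 of the 17360 genes tested, with a median log2 difference of 0.17. Without TWEAK30 replicate 2 it was larger for 21 of the 34, with a median of 0.047. Without TWEAK30 replicate 1 it was larger for 31, with a median of 0.301. Prc1 was the 1 member with an unadjusted p under 0.05, against 6.96% of all genes (0.45 ± 0.19, edgeR adjusted p = 0.695). The 95% interval of this log2 difference was narrowest for Mad2l1 (-0.23 to 0.28) and widest for Foxm1 (-1.27 to 0.94). It excluded 0 for Prc1 alone among the 34, which restates the unadjusted p of the same test. Both libraries at 10 ng/ml lay above both at 30 ng/ml for 15 members, against 17.9% of all genes, and below for 1, Cdc20, against 18.5%.

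At 100 ng/ml 33 of the 34 fitted changes were above 0, against 8738 of the 17360 genes tested. The median over members was 0.45 on the log2 scale. Each member's change was lower than at 30 ng/ml, against 8857 of all genes tested. Both libraries of 100 ng/ml lay above both untreated ones for 24 members, against 21.9% of all genes tested, and below for none, against 22.1%. Ube2c rose by 1.04 ± 0.18 (edgeR adjusted p = 0.0494). That call was lost whichever of the 8 libraries was left out (edgeR adjusted p from 0.0532 without TWEAK30 replicate 2 to 0.258 without untreated replicate 1). An unadjusted p under 0.05 was reached by 19 members, against 11.6% of all genes. The 95% interval comes from the same F test, so that it excluded 0 for the same 19 is a restatement. Anln changed by 0.63 ± 0.12 (edgeR adjusted p = 0.0584), Nuf2 by 0.99 ± 0.26 (0.162) and Top2a by 0.52 ± 0.13 (0.13). DESeq2 called 7 members, namely Ube2c, Cenpe, Nuf2, Kif11, Anln, Top2a and Mki67, all higher, beside 598 of all genes tested (3.44%) that it called in either direction. Fitted changes near 0 were those of Incenp (0.00, 95% interval -0.32 to 0.32), Ttk (0.01, -0.56 to 0.58) and Aurka (0.01, -0.40 to 0.42). Within the group 30 of the 34 genes were higher in replicate 2 than in replicate 1, and in the untreated group 22 were. The share of all genes higher in the same replicate was not computed.

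Direct tests between doses bear on the order. At 10 ng/ml 29 members were higher than at 100 ng/ml and none lower, beside 11.2% of all genes that were higher and 10.7% that were lower. The median log2 difference was 0.88. Mki67 was higher by 1.17 ± 0.14 (edgeR adjusted p = 0.000901), Anln by 1.02 ± 0.12 (0.000651) and Melk by 1.35 ± 0.16 (0.00075). The 5 that did not pass were Cdk1, Foxm1, Mad2l1, Cenpa and Racgap1. The median log2 difference over members was 0.779 without TWEAK100 replicate 1 and 1.009 without TWEAK100 replicate 2. It was 0.853 without TWEAK10 replicate 1 and 0.96 without TWEAK10 replicate 2. Fewer members, and fewer of all genes, passed in each of these fits. At 30 ng/ml 19 members were higher than at 100 ng/ml and none lower, beside 8.04% of all genes that were higher and 7.15% that were lower. Here the median log2 difference was 0.725. It was 0.865 without TWEAK100 replicate 2, 0.811 without TWEAK30 replicate 2, 0.633 without TWEAK100 replicate 1 and 0.543 without TWEAK30 replicate 1. Again fewer members, and fewer of all genes, passed in each such fit, which leaves a lone library in a group. All 4 libraries of 10 and 30 ng/ml lay above both of 100 ng/ml for 31 of the 34 genes. The share of all genes that met this joint condition was not computed. Taken singly, both libraries of 10 ng/ml lay above both of 100 ng/ml for 33 members, against 30.8% of all genes tested. Both libraries of 30 ng/ml did so for 32, against 29.5%. The comparisons with untreated cells share the untreated libraries, and these 2 share the libraries labelled 100 ng/ml.

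**Figure D3:**
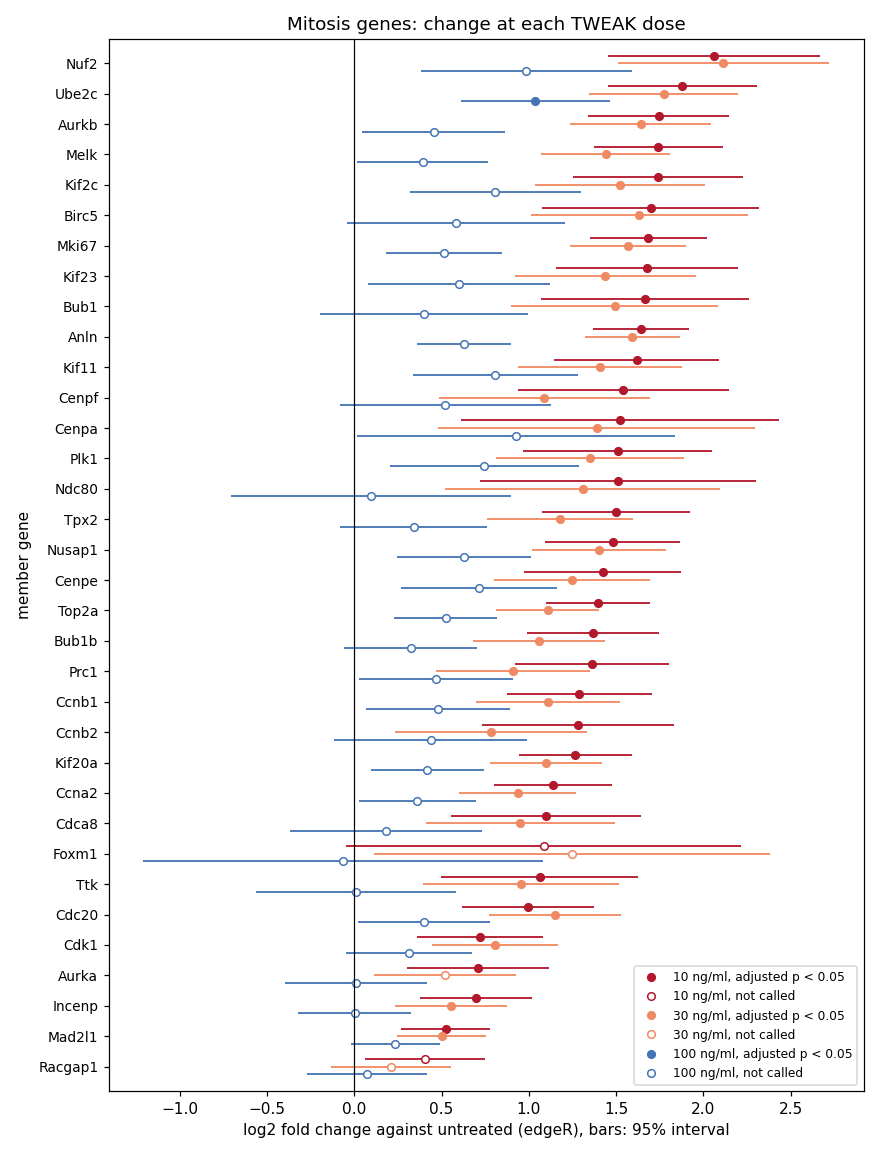
Log2 fold change of each mitosis gene against untreated cells at 10, 30 and 100 ng/ml (points, edgeR) with 95% intervals (bars), ordered by the change at 10 ng/ml; filled points passed an adjusted p of 0.05. Changes at 10 and 30 ng/ml lie close together from Racgap1 (0.40 and 0.21) to Nuf2 (2.06 and 2.11), and those at 100 ng/ml lie to the left of them.

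Other genes of cell division were read from lists beside the 34. Of 50 further mitosis genes 39 rose at 10 ng/ml, 36 at 30 ng/ml and 0 at 100 ng/ml, and none fell at any dose. Over all genes tested 15%, 12.6% and 0.812% rose at these doses. At 100 ng/ml 17 of the 50 had an unadjusted p under 0.05, against 11.6% of all genes. The median log2 changes of the 50 were 1.36, 1.22 and 0.44. Zwint, a kinetochore protein, rose from 110 ± 0.507 to 208 ± 4.34 CPM at 10 ng/ml (SD, n = 2), and Trip13, a checkpoint ATPase, from 1.82 ± 0.0623 to 6.97 ± 0.226 CPM. Gtse1 rose by 1.40 ± 0.14 and Ccnf (cyclin F) by 1.56 ± 0.17 on the log2 scale. The 2 with a fitted change under 0 were Pttg1 (securin, -0.19, edgeR adjusted p = 0.389) and Bora, an activator of Aurka (-0.01, 0.974), both named after their values were seen. Of 8 condensin subunits, which compact chromosomes, 6 rose at 10 ng/ml and 5 at 30 ng/ml, with Ncapg2 rising by 1.31 ± 0.14, Ncapg by 1.06 ± 0.18, Ncapd2 by 0.87 ± 0.11 and Smc2 by 0.81 ± 0.12.

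Core subunits of the anaphase-promoting complex, which are present through the cell cycle, gave another picture than its activator Cdc20 and its enzyme Ube2c. None of the 14 passed in either direction at 10, 30 or 100 ng/ml by edgeR (2, 0 and 0 at an unadjusted p under 0.05), with median log2 changes of -0.06, -0.09 and -0.05. Anapc1 stood at 189 ± 0.969 CPM in untreated cells and 178 ± 2.54 at 10 ng/ml (SD, n = 2), Anapc5 at 151 ± 5.04 and 125 ± 20.5, Anapc16 at 28.8 ± 2.76 and 33.6 ± 0.466, and Cdc23 at 61.6 ± 5.03 and 52.1 ± 7.66. Of 4 regulators of the complex, its inhibitor Fbxo5 rose by 1.01 ± 0.19 at 10 ng/ml (edgeR adjusted p = 0.00565), while the activator Fzr1 (0.24 ± 0.08, 0.0678), Mad2l2 and Ube2s did not pass.

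Genes that act before mitosis moved in part with the 34. Of 32 genes of DNA replication and the G1/S transition 24 rose at 10 ng/ml, 22 at 30 ng/ml and 0 at 100 ng/ml, and none fell. Over all genes tested 15%, 12.6% and 0.812% rose at these doses. At 100 ng/ml 9 of the 32 had an unadjusted p under 0.05, against 11.6% of all genes. The median log2 changes of the 32 were 0.68, 0.60 and 0.17. Rrm2, a ribonucleotide reductase subunit, rose by 1.47 ± 0.13 at 10 ng/ml, Mcm5 of the replicative helicase by 1.54 ± 0.14 and the polymerase gene Pole by 1.48 ± 0.15. Mcm6, of the same helicase, rose from 29.2 ± 1.21 to 58.5 ± 2.19 CPM (SD, n = 2). The summed CPM of the 34 mitosis genes was 0.406 and 0.43 times that of this list in untreated libraries, 0.603 and 0.648 times at 10 ng/ml, 0.619 and 0.562 at 30 ng/ml and 0.474 and 0.522 at 100 ng/ml. The ratio was thus higher in every treated library than in either untreated one.

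Of 19 genes of E2F, pocket and MuvB proteins, which regulate transcription in the cell cycle, 4 rose and 2 fell at 10 ng/ml. The share called was near that over all genes, of which 15% rose and 14.2% fell. The repressors E2f8 and E2f7, themselves made late in G1, rose by 1.58 ± 0.18 and 1.28 ± 0.22, and Rbbp4 by 0.23 ± 0.06. Rbl2 (p130), a pocket protein of resting cells, fell by 0.59 ± 0.08 on the log2 scale, and Rb1 fell by 0.32 ± 0.09. Among 6 G1 cyclins and kinases, Ccnd1 (cyclin D1) rose from 24.3 ± 0.811 to 202 ± 8.81 CPM (3.06 ± 0.13 on the log2 scale, adjusted p = 4.49e-06 by edgeR) and Cdk6 by 0.84 ± 0.10, while Ccnd2 fell by 0.34 ± 0.05 and Ccnd3 by 1.29 ± 0.34. The untreated mean of Ccnd3, 57.6 ± 32.6 CPM, rests on unequal libraries.

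Inhibitors of cyclin-dependent kinases changed in both directions in the same libraries. Of 7, 3 rose and 2 fell at 10 ng/ml, beside 15% of all genes that rose and 14.2% that fell. Cdkn2a rose by 2.28 ± 0.15, Cdkn2b by 1.84 ± 0.10 and Cdkn1a (p21) by 0.65 ± 0.06, from 340 ± 7.64 to 533 ± 25.3 CPM (SD, n = 2). Cdkn2c (p18) fell from 52.8 ± 2.2 to 18.5 ± 4.79 CPM and Cdkn1b (p27) from 80.6 ± 0.745 to 49.5 ± 2.22 CPM, log2 changes of -1.52 ± 0.16 and -0.70 ± 0.08. At 100 ng/ml Cdkn2a rose by 0.90 ± 0.14 (edgeR adjusted p = 0.0317), and the other 6 did not pass.

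**Figure D4:**
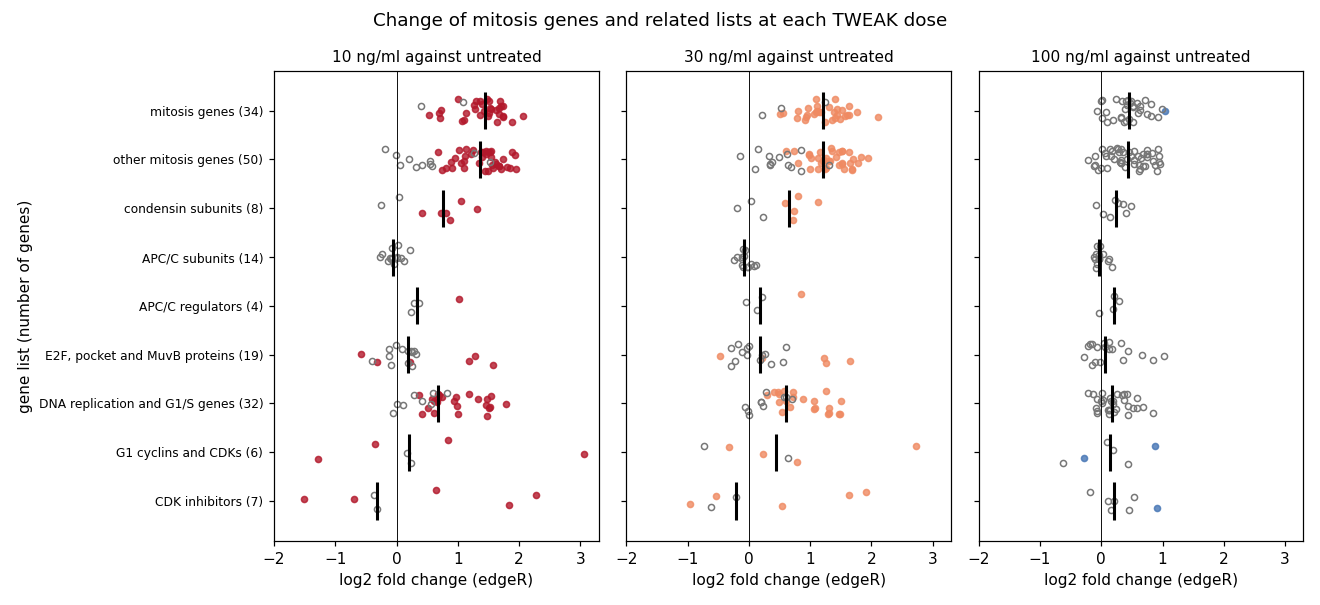
Log2 fold change against untreated cells (edgeR) of every gene of the 34 mitosis genes and 8 related lists at the 3 doses; filled points passed an adjusted p of 0.05, open grey points did not, and black bars are list medians. At 10 ng/ml the mitosis medians are 1.45 and 1.36, and that of the 14 APC/C (anaphase-promoting complex) subunits is -0.06.

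Markers of fibroblasts were abundant in all libraries, 9 of 9 genes tested. Their summed level was 21320 to 21630 CPM in untreated cells and 11140 to 11260 at 10 ng/ml. It was 11990 to 13230 at 30 ng/ml and 18930 to 19950 at 100 ng/ml. At 10 ng/ml 6 of the 9 fell and 3 rose, beside 14.2% of all genes that fell and 15% that rose. None of the 9 passed at 100 ng/ml. Summed markers of smooth muscle and pericytes (5 genes) were 73.2 to 90.3 CPM in untreated cells, 135 to 148 at 10 ng/ml, 121 to 137 at 30 ng/ml and 80 to 93 at 100 ng/ml, and moved with the mitosis genes. At 10 ng/ml 3 of these 5 genes rose and 2 fell. Des, an intermediate filament gene of muscle, was among those that rose, while Myh11 and Cnn1 fell. Summed myeloid markers (6 genes) were 11.6 to 15.3 CPM in untreated cells and 21.7 to 27.3 in all treated libraries. Only 1 of these 6 genes rose at each dose, and none fell. Their fitted changes were above 0 for 4 and below for 2 at 10 ng/ml. At 30 ng/ml 3 were above 0 and 3 below, and at 100 ng/ml 6 were above. The part of these cell type markers in the change of the mitosis genes was not tested. Single markers of other cells were at or near 0, but not all genes of their lists were. The epithelial gene Epcam and the lymphocyte gene Cd3e had 0 counts. The leukocyte gene Ptprc was at most 0.65 CPM and the endothelial gene Pecam1 at most 0.467 CPM. From their lists 2 of 7 epithelial, 4 of 6 endothelial and all 6 myeloid genes passed the low-count filter. No lymphocyte gene did. Summed mesothelial markers (5 genes) were 13.2 to 13.4 CPM in untreated cells and 4.42 to 11.6 in treated ones. Endothelial markers (6 genes) summed to 5.83 to 7.69 CPM over all libraries, but 2 of the 4 tested changed at 10 ng/ml. Cdh5 rose, from 0.18 and 0.12 CPM in untreated cells to 4.27 and 3.81 at 10 ng/ml, 3.41 and 2.53 at 30 ng/ml and 0.528 and 0.525 at 100 ng/ml, and so moved with the mitosis genes. Tek fell, from 4.49 and 4.97 CPM to 1.23 and 1.68 at 10 ng/ml. Both were named after their values were seen, and their part in the result was not tested. Summed epithelial markers (7 genes) were 0.899 to 2.93 CPM over all libraries, and the 4 red blood cell genes had 0 counts.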

How the data were processed

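The authors deposited raw counts per gene for the 8 libraries in 1 table, not normalized. The submitters' processing notes list mm10, STAR and StringTie. How reads were counted, with which annotation and whether by strand, is not given in the sources used here, so overlapping genes cannot be told apart. The table has 55335 rows. The 3225 rows without a symbol (0.168% to 0.178% of counts) were left out, and 80 repeated symbols were kept as separate rows.

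After filterByExpr by group and TMM scaling, edgeR 4.0.16 (R 4.3.3) gave quasi-likelihood F tests. A group-means model was fitted to the 8 libraries together (4 residual degrees of freedom), 6 contrasts were taken, and two-sided p-values were adjusted by Benjamini-Hochberg over all 17360 genes. Standard errors (the change divided by the root of F) and 95% intervals are approximate. The fit was checked on simulated counts. Alternatives used DESeq2 1.42.0, limma-voom (limma 3.58.1), other scalings and filters, fewer groups, a replicate block and each library left out in turn. Leaving one out assumes that the lone library varies like the other groups.

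Positions and exons are those of GENCODE M21 on mm10, and promoters those of RefSeq. The members and lists were chosen with earlier results of these data known. All 34 members are named. Values per library are written out for the most abundant member of each role, the 2 largest and 2 smallest changes at 10 ng/ml and those not called. From each other list up to 4 genes with the smallest p at 10 ng/ml are named, with any called against the list's direction. With 2 libraries per group, precision rests on their spread, and counts cover counting error only.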

Additional observations from a re-analysis of the deposited data

How the results depend on the processing

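Counts of members called at 10 and 30 ng/ml against untreated, and the count of 0 between these doses, kept their side and stayed within 1.5 times under every alternative run. At 100 ng/ml the count of 1 became 7 by DESeq2, 2 with library totals, 2 with a mean of at least 1 CPM, 0 by limma-voom, without the low-count filter, with only the groups compared or with the replicate block, and 0 to 0 when a library was left out. Against 100 ng/ml, the 29 members higher at 10 ng/ml became 9 to 28 and the 19 at 30 ng/ml became 4 to 16 when a library was left out. With only the groups compared the 19 at 30 ng/ml became 12, without the low-count filter 13 and with the replicate block 14. Under the other alternatives with all libraries it ran from 18 to 22. The cause was not tested. Among changes against untreated cells, those that turned direction were at 100 ng/ml and uncalled. Without the low-count filter these were Aurka (-0.0034), Incenp (-0.012) and Ttk (-0.0062), and by limma-voom Incenp (-0.0024) and Ttk (-0.0072). With libraries left out, values ran from -0.048 to 0.063 for Aurka, -0.44 to 0.44 for Foxm1, -0.13 to 0.12 for Incenp, -0.17 to 0.38 for Ndc80, -0.044 to 0.18 for Racgap1 and -0.30 to 0.26 for Ttk. Between doses, members fitted higher at 10 than at 30 ng/ml numbered 21 to 31 with libraries left out, and those higher at 10 than at 100 ng/ml numbered 33 without TWEAK10 replicate 2. Deviations of same-numbered libraries correlated at -0.086 to 0.032 over 11157 genes, so no pairing by replicate number was seen. With 2 libraries per group this cannot settle whether same-numbered libraries share a culture or mouse. With the replicate block 32, 30 and 0 members were called at 10, 30 and 100 ng/ml. Without both libraries labelled 100 ng/ml, an alternative chosen after seeing the data, 32 and 29 were called at 10 and 30 ng/ml. The lowest value of any member in any library, 1.52 CPM for Cenpa, was above the 0.0801 CPM that 3 counts make at most.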
